A study of Mus musculus with 3 samples.

Results

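The data describe 10 transcription factors of adipogenesis, the formation of fat cells, chosen by name from textbook knowledge of the pathway: Cebpb, Cebpd, Klf4, Klf5, Ebf1, Ebf2, Zfp423, Pparg, Cebpa and Gata2. They are 10 of the 32285 genes counted. RNA was measured by droplet-based single-cell RNA-seq in CD31- CD45- cells sorted from the stromal vascular fraction of subcutaneous inguinal fat, the cells left after digestion once floating adipocytes have been removed. The donors were 3 wild-type, untreated C57BL/6J males aged 8 weeks, each giving its own library, so the comparisons are between kinds of cell within the same animals. The study asked which stages a stem cell passes through before it becomes an adipocyte.

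Adipogenesis runs as a cascade. C/EBPβ and C/EBPδ, encoded by Cebpb and Cebpd, and the Krüppel-like factors KLF4 and KLF5 act early. C/EBPβ and C/EBPδ activate Pparg and Cebpa, and KLF5 activates Pparg. PPARγ, the product of Pparg, is the master regulator of the fat cell. C/EBPα, the product of Cebpa, acts with PPARγ and keeps it switched on. EBF1, EBF2 and ZFP423 mark and prepare cells for the adipocyte fate, while GATA2 holds preadipocytes back by opposing PPARγ. Here Cebpb, Cebpd, Klf4 and Klf5 are called early factors and Pparg and Cebpa late factors.

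Cells were assigned by gates on unique molecular identifiers (UMIs, one per captured transcript) of 8 other genes, none of which is one of the 10 factors. Progenitor cells held at least 3 UMIs of Dpp4 and Pi16 together and at most 1 of Icam1 and Fabp4 together. Preadipocytes held at least 4 UMIs of Icam1 and Fabp4 together and at most 1 of Dpp4. Regulatory cells held Clec11a and Fmo2 with at most 1 UMI each of Fabp4 and Dpp4. Cited1 cells held at least 2 UMIs of Cited1 and at least 2 of Fabp4 and Lpl together. The progenitor gate took 7390, 3146 and 9257 cells in mice 1, 2 and 3, the preadipocyte gate 2108, 1374 and 1856, the regulatory gate 268, 381 and 402 and the Cited1 gate 212, 64 and 73. Fabp4 and Lpl are themselves targets of PPARγ, so the tests between gates were repeated with gates that did not use them. The Cd44 split, the shares of cells, the levels along the gate genes and the counts of gene lists below were not. Counts were summed per gate and mouse and are given as CPM, the gene's UMIs scaled to the total UMIs of that gate. These come from the 3' ends of transcripts and do not allow levels of different genes to be ranked.

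Markers that the gates did not use went with the names of the progenitor, preadipocyte and regulatory gates in every mouse. Cd55 was at 799 CPM in the progenitor gate and 96.4 in the preadipocyte gate (means of 3 mice), Col15a1 at 30.1 and 990. F3, which encodes the regulatory cell marker CD142, was at 324 CPM in the regulatory gate and 13.7 in the progenitor gate. The Cited1 gate was less uniform. Its marker Ptn was at 205, 7.43 and 1034 CPM in mice 1, 2 and 3, against 3.54, 1.64 and 119 CPM in the regulatory gate, so mouse 2 showed little of it. The listed markers Cited1, Car3, Ptn and Apoe together set the gate apart less. They summed to 1412, 602 and 2305 CPM in it, to 993, 1178 and 1820 CPM in the regulatory gate and to 960, 658 and 1020 CPM in the preadipocyte gate. In mouse 2 the Cited1 gate was below both. In this gate 13.7%, 42.2% and 38.4% of its cells in mice 1, 2 and 3 held more than 1 Dpp4 UMI. Adipoq, a defining gene of the mature adipocyte, averaged at most 0.235 CPM in each of the 4 gates and was at 0 in every progenitor and regulatory sum, so the late factors are described here in cells that are not yet adipocytes. Kept libraries held 78108414 to 99328725 UMIs, with a median of 6667 to 12192.5 per cell. Mouse 2 had the fewest and deepest cells. The gates also differed in depth, with medians of 4575 to 9991 UMIs per cell for regulatory cells and 7257.5 to 12961.5 for preadipocytes. The preadipocyte gate held 23, 30 and 3 cells that carried endothelial markers, and some results for Pparg, Klf5 and Gata2 are also given without them. Any pair of libraries shared 52 to 81 cell barcodes.

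The factors lie on several chromosomes (GRCm38, GENCODE annotation). Pparg spans chr6:115360951-115490399 on the plus strand with up to 8 exons. Cebpa (chr7:35119293-35121928) and Cebpb (chr2:167688915-167690418) are short genes. RefSeq promoters were matched for 7 of the 10 factors, with 12 start sites in all. The promoters of Cebpa, Cebpb and start site 3 of Pparg are shown because the late factors Pparg and Cebpa rose in preadipocytes and C/EBP proteins are their known activators. Each is the 250 bases before a start site of GRCm38.p6, 5′ to 3′, and none overlaps an annotated exon. Capitals mark the letters TTGCNNAA, a C/EBP-type motif, or TATAAA, a core promoter element, on either strand.
Pparg, start site 3, chr6:115421816-115422065, plus strand: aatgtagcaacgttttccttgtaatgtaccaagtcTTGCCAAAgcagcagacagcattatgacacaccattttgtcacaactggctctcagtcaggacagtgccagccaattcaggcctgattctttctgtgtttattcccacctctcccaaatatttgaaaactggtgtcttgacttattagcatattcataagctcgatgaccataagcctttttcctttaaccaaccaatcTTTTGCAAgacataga
Cebpa, chr7:35119043-35119292, plus strand: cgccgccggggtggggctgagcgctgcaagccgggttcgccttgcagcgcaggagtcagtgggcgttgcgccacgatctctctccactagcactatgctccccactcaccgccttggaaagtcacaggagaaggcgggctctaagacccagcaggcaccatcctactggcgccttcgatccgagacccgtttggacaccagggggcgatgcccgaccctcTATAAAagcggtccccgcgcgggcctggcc
Cebpb, chr2:167688665-167688914, plus strand: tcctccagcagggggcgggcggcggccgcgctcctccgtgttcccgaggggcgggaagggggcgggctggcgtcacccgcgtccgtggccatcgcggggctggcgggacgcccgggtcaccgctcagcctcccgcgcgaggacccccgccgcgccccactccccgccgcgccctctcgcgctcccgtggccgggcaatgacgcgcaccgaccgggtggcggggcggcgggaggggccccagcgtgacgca
The window of Pparg start site 3 held 2 C/EBP-type matches, which begin at -215 and -16 bases from the start, and the Cebpa and Cebpb windows held 0. The windows of Pparg start sites 1 and 2, which overlap Pparg exons and are not shown, also held 0. Of the other windows 1, a Zfp423 promoter, held a match. The motif was present in 9.57% of 32841 promoter windows of this length and TATAAA in 12.4%. Start site 3 of Pparg lies inside the gene, and the counts do not separate transcripts by start site.

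The first comparison set the preadipocyte gate against the progenitor gate. Pparg and Cebpa rose, Ebf2, Cebpb, Klf4, Ebf1 and Zfp423 fell, and Cebpd, although an early factor, rose. Of the 9 factors tested, 8 passed the test, 3 higher and 5 lower in preadipocytes, where 49.9% of all 12992 genes tested passed, 24.4% higher and 25.5% lower. With a background this high, the sizes of the differences carry more than the count.

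Among the late factors, Pparg was at 3.65, 2.84 and 3.85 CPM in the progenitor gate of mice 1, 2 and 3 and at 53.2, 47.7 and 46.7 CPM in the preadipocyte gate. The groups were far apart, and mice within a gate differed by little. The rise was 13.9-fold (log2 fold change 3.80 ± 0.16 SE, adjusted p = 1.34e-09, edgeR quasi-likelihood test with mouse as a block). It was 3.31 on the log2 scale with gates that used neither Fabp4 nor Lpl and 3.79 without cells carrying endothelial, mural or leukocyte markers. Cebpa was at 12.8, 12.7 and 10.3 CPM in progenitors and at 33.6, 42.1 and 31.3 CPM in preadipocytes. Its groups did not overlap either, and its rise was smaller, 2.90-fold (log2 fold change 1.54 ± 0.11, adjusted p = 1.61e-07).

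The early factors did not move together. Cebpb was at 1116, 1772 and 1522 CPM in progenitors and at 670, 957 and 1012 CPM in preadipocytes. Each mouse had more Cebpb in its progenitors, and the gates did not overlap (log2 fold change -0.77 ± 0.11, adjusted p = 7.92e-05, edgeR). Klf4 was at 3304, 3366 and 3402 CPM in progenitors and at 2455, 2037 and 2417 CPM in preadipocytes (log2 fold change -0.58 ± 0.093, adjusted p = 0.000181, edgeR). More progenitors carried transcripts of 3 activation genes, and such cells are called activated here: 48.9%, 59.7% and 62.4% of progenitors held at least 2 UMIs of Nr4a2, Nr4a3 and Fosl1 together, against 6.12%, 14.1% and 14.0% of preadipocytes. The sum of a list of 24 immediate early and dissociation genes, which holds these 3 and heat shock genes, went the other way. It was at 20468 ± 1907 CPM in progenitors and 31057 ± 3234 CPM in preadipocytes (SD, n = 3). Of the 24 genes, 15 were higher and 5 lower in preadipocytes, and abundant genes weigh most in the sum. Without the activated cells the Cebpb difference was -0.17 on the log2 scale (adjusted p = 0.184, edgeR) and the Klf4 difference was -0.22 (adjusted p = 0.0699, edgeR), and both calls were lost. Progenitor Cebpb was then at 804, 950 and 1107 CPM and preadipocyte Cebpb at 656, 880 and 962 CPM. The gates overlapped, though each mouse still had more Cebpb in its progenitors, by a smaller step. Cebpd ran the other way, with 946, 1112 and 717 CPM in progenitors and 1278, 1579 and 1507 CPM in preadipocytes (log2 fold change 0.63 ± 0.17, adjusted p = 0.00871, edgeR). Its call was lost without mouse 3 (0.45, adjusted p = 0.126, edgeR) and without the mouse block. Klf5 was scarce in both gates, at 1.31 to 3.09 CPM, and did not pass the test (log2 fold change 0.24 ± 0.33, adjusted p = 0.577, edgeR).

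The commitment factors were all lower in preadipocytes. Ebf2, a factor of the brown and beige fat programme that also marks fat precursors, was at 313, 290 and 299 CPM in progenitors and at 151, 135 and 163 CPM in preadipocytes. The 3 mice were close to each other in both gates, and the level differed 2.05-fold (log2 fold change -1.04 ± 0.17, adjusted p = 0.000276, edgeR). Without activated cells its log2 fold change was -1.01. Ebf1, a factor of B cells and of fat precursors, fell less, from 639, 596 and 607 CPM to 491, 501 and 487 CPM (log2 fold change -0.35 ± 0.10, adjusted p = 0.00974, edgeR). Zfp423, a zinc-finger protein that raises Pparg in committed cells, was at 11.5, 11.7 and 15.1 CPM in progenitors and 9.95, 10.5 and 9.35 CPM in preadipocytes (log2 fold change -0.38 ± 0.13, adjusted p = 0.0277, edgeR). The Ebf1 call was lost without mouse 1 (-0.31), without mouse 3 (-0.34) and with gates lacking Fabp4 and Lpl (-0.31), the Zfp423 call without mouse 3 (-0.20), with DESeq2 (-0.38) and in thinned cells (-0.26), and both without the mouse block.

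**Figure D1:**
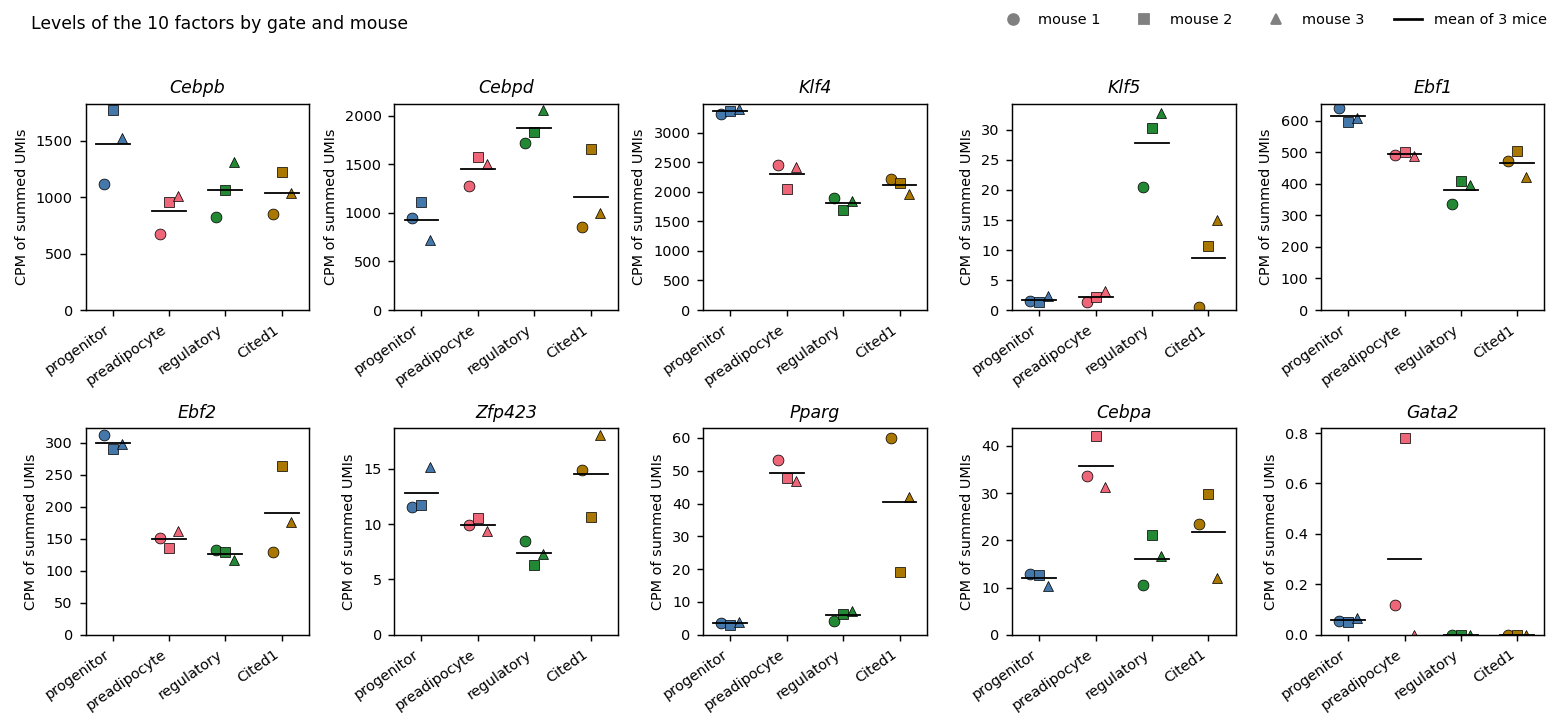
Levels of the 10 factors (vertical axes, CPM of summed UMIs, each from 0) in the 4 gates (horizontal axes), with 1 symbol per mouse and a line at the mean of 3 mice. Pparg was at or below 7.28 CPM in every progenitor and regulatory sum and at or above 46.7 CPM in every preadipocyte sum, while Klf5 stood out in the regulatory gate at 20.5 to 32.8 CPM.

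Gata2, the inhibitor, was close to absent and was left out of the test as too low. In the progenitor gate 3, 2 and 4 of its UMIs were counted in mice 1, 2 and 3, and in the preadipocyte gate 2, 14 and 0. All 14 UMIs in mouse 2 were in cells with endothelial, mural or leukocyte markers, and 0 were left without those cells. In the regulatory and Cited1 gates of all mice it had 0 UMIs. Among 339 regulatory cells of mouse 2 thinned to 3000 UMIs, the count of 0 allows a share of up to 0.885% of cells with a UMI. The gene was detectable elsewhere, with 10 UMIs in the 2 leukocyte-marked cells of mouse 1.

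Shares of cells were compared after each cell was thinned to 3000 UMIs, which left out 35 to 67 preadipocytes and 63 to 803 progenitors per mouse. It also left out 60, 42 and 109 of the 268, 381 and 402 regulatory cells, a larger part of their gate. Pparg was found in 0.865%, 0.811% and 1.05% of progenitors and in 13.3%, 13.5% and 12.97% of preadipocytes. In mouse 1 the exact 95% intervals were 0.659% to 1.11% and 11.9% to 14.9%, which are far apart and cover counting error only. Before thinning the shares were 2.67% ± 0.36 and 33.7% ± 8.28 (SD, n = 3). Cebpa was found in 3.64% ± 0.49 of progenitors and 9.73% ± 2.38 of preadipocytes (SD, n = 3). Both late factors were present in 1.52% ± 0.32 of preadipocytes. Leukocyte-marked cells gave 0 in all 3 mice but numbered 2 or 3 per mouse, and some leukocytes can express Pparg, so they set no background. Of 8 endothelial-marked cells per mouse, 3, 4 and 0 held Pparg, a gene these cells are known to express. By contrast, 58.4%, 54.8% and 56.1% of progenitors and 33.3%, 34.7% and 35.3% of preadipocytes held Ebf2. Cells with Cebpb, Cebpd and Klf4 all present made up 65.1% ± 2.98 of progenitors and 66.5% ± 5.31 of preadipocytes, and a late factor was present in 4.50% ± 0.37 and 21.5% ± 2.51.

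**Figure D2:**
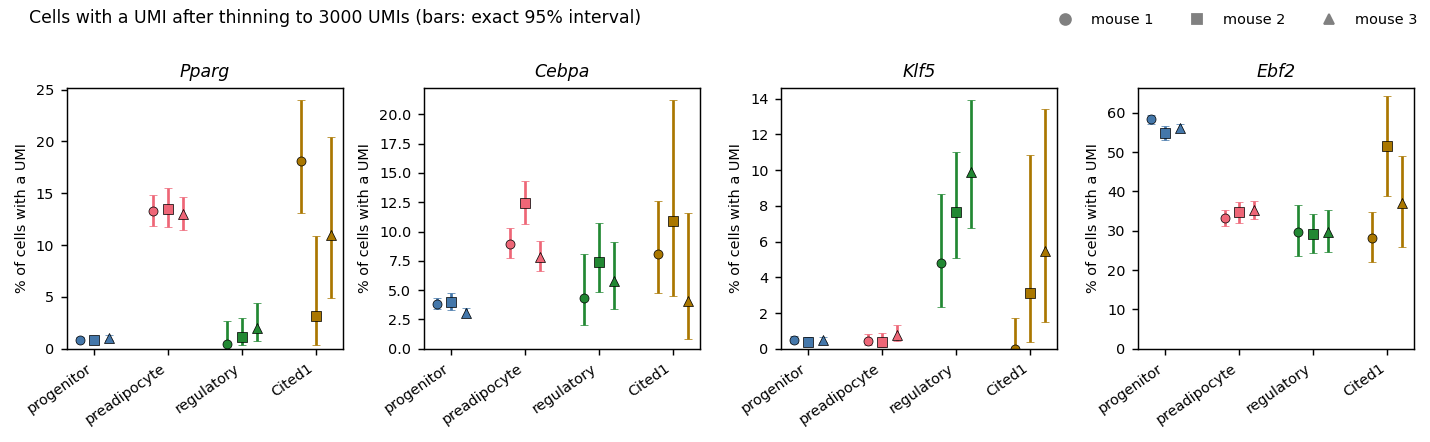
Percent of cells with at least 1 UMI of Pparg, Cebpa, Klf5 or Ebf2 (vertical axes) by gate and mouse, after thinning to 3000 UMIs per cell, with exact 95% intervals that cover counting error. Pparg was found in 12.97% to 13.5% of preadipocytes in each mouse and in 0.811% to 1.05% of progenitors, and the Cited1 gate, of 64 to 210 cells, had the widest intervals.

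The levels changed by degrees along the gate genes, in thinned cells without endothelial, mural or leukocyte markers. Cells with more than 1 Dpp4 UMI, which include many progenitors, were left out along Icam1 and Fabp4. Among the rest, Pparg was at 9.87 ± 2.74 CPM (SD, n = 3 mice) where Icam1 and Fabp4 had 0 UMIs, at 19.4 ± 3.36 with 1, at 32.8 ± 5.39 with 2 to 3, at 52.2 ± 4.43 with 4 to 7 and at 57.8 ± 1.33 with 8 or more. Cebpa went from 16.9 ± 2.49 to 38.8 ± 11.9 CPM over the same steps, and most of its step came before 4 UMIs. Ebf2 went down from 258 ± 11.4 to 149 ± 1.45 CPM, and the values at 4 to 7 and at 8 or more differed by less than the spread between mice. Cebpd was highest in the middle, at 1622 ± 261 CPM with 1 UMI, against 1262 ± 130 with 0 and 1224 ± 146 with 8 or more. Along Dpp4 and Pi16, in cells with at most 1 UMI of Icam1 and Fabp4 together, the order was the opposite. Pparg fell from 21.1 ± 4.22 CPM with 0 UMIs to 2.27 ± 0.37 with 11 or more. Over the same range Klf4 went from 2171 ± 201 to 3536 ± 50.4 CPM and Ebf2 from 164 ± 3.34 to 321 ± 20.2 CPM. These trends are descriptions, since neighbouring steps share libraries. Fabp4, a target of PPARγ, is part of the Icam1 and Fabp4 count, so Pparg is not independent of those steps. They were not repeated with Icam1 alone.

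**Figure D3:**
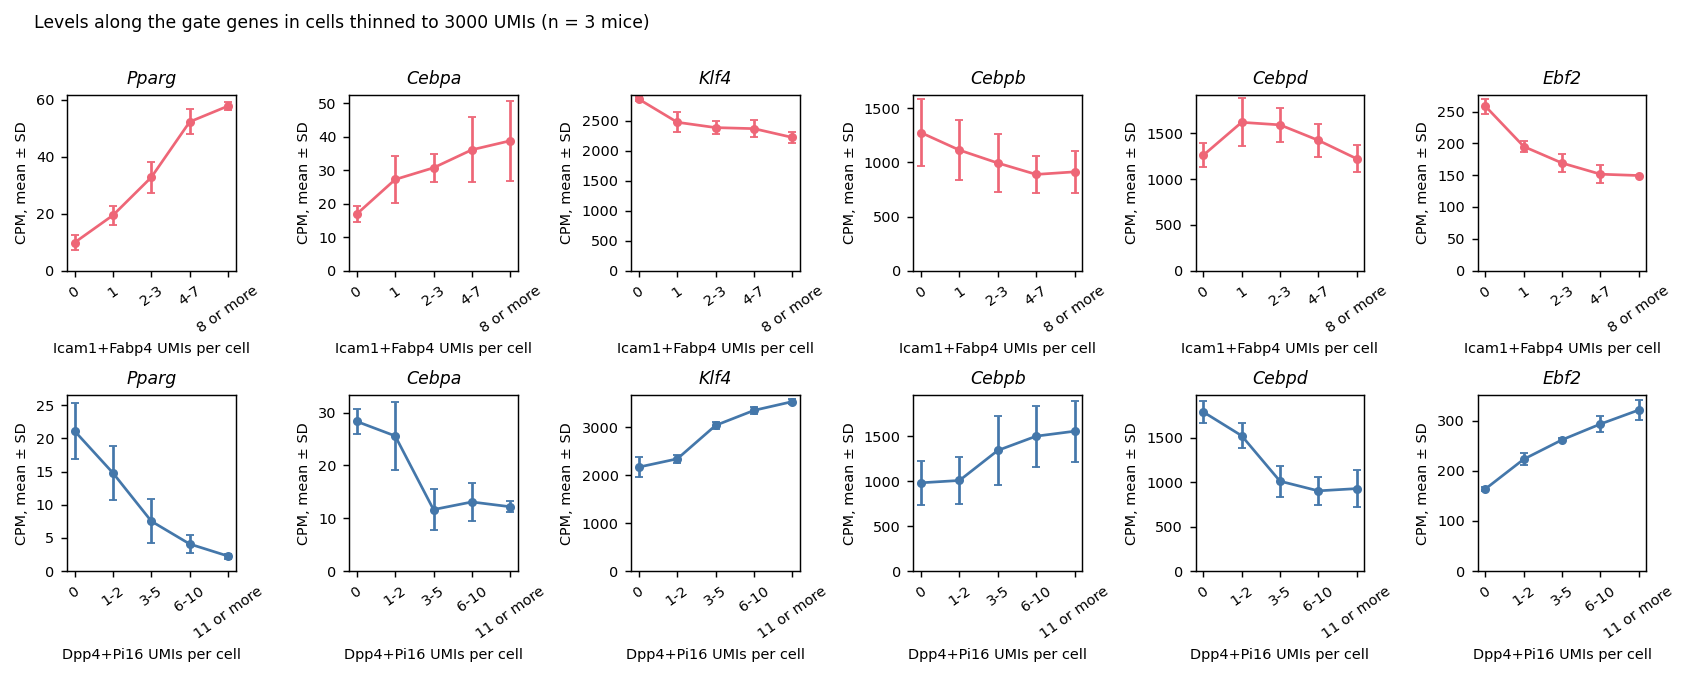
Mean CPM ± SD over 3 mice (vertical axes, from 0) of 6 factors in cells thinned to 3000 UMIs, by the number of Icam1 and Fabp4 UMIs (upper row) or Dpp4 and Pi16 UMIs (lower row) in the cell. The upper row holds cells with at most 1 Dpp4 UMI and the lower row cells with at most 1 UMI of Icam1 and Fabp4. Pparg and Cebpa rose to the right in the upper row, to 57.8 and 38.8 CPM, while Ebf2 and Klf4 rose in the lower row, to 321 and 3536 CPM.

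Regulatory cells, a population reported to restrain adipogenesis nearby, were set against preadipocytes and progenitors. They had little Pparg, and Klf5 was high in them. Against preadipocytes 5 of 9 factors passed the test, 1 higher and 4 lower, where 20.1% of all genes passed, 10.6% higher and 9.53% lower. Against progenitors 8 of 9 passed, 3 higher and 5 lower, where 37.8% of all genes passed, 18.1% higher and 19.8% lower.

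Klf5, an early factor that activates Pparg in cultured cells, was at 20.5, 30.3 and 32.8 CPM in the regulatory gate of mice 1, 2 and 3, from 29, 111 and 63 UMIs. It was at 1.31, 2.17 and 3.09 CPM in preadipocytes and at 1.58, 1.37 and 2.29 CPM in progenitors, and no sum of either came near the regulatory gate. The level was 13.5-fold that of preadipocytes (log2 fold change 3.76 ± 0.34, adjusted p = 8.24e-06, edgeR) and 16.0-fold that of progenitors (4.00 ± 0.32, adjusted p = 8.87e-07, edgeR). Few cells carried it: 4.81%, 7.67% and 9.90% of thinned regulatory cells held a UMI, against 0.439%, 0.373% and 0.783% of preadipocytes. Pparg in regulatory cells was at 4.24, 6.28 and 7.28 CPM, 7.46-fold below preadipocytes (log2 fold change -2.90 ± 0.26, adjusted p = 8.63e-06, edgeR). Against progenitors it did not pass the test (0.90 ± 0.36, adjusted p = 0.0667, edgeR). It passed with DESeq2 (0.93), with no low-count filter (0.82), without mouse 1 (1.03) and with gates as written (1.06), and its sign turned in thinned sums (-0.27). Cebpa was at 10.6, 21.03 and 16.6 CPM, below preadipocytes in every mouse (log2 fold change -1.02 ± 0.17, adjusted p = 0.000962, edgeR), a call lost in thinned sums (-0.62). Against progenitors its difference was 0.51 ± 0.18 (adjusted p = 0.0420, edgeR), a call lost without mouse 2 (0.30) or mouse 3 (0.43), without the mouse block (0.54), without activated cells (0.61), with gates lacking Fabp4 and Lpl (0.53) and with no low-count filter (0.43).

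The gates use Fabp4 to keep cells out of the regulatory gate, and with gates that do not use Fabp4 or Lpl the Pparg difference from preadipocytes was -2.61 (adjusted p = 0.000140, edgeR) and that of Klf5 2.94 (adjusted p = 0.000322, edgeR). Endothelial-marked cells also held Klf5, at 77.5, 16.9 and 239 CPM. Without the cells carrying endothelial, mural or leukocyte markers the Klf5 difference from preadipocytes was 3.71.

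Cebpd was highest in the regulatory gate, at 1714, 1834 and 2057 CPM, above every progenitor sum (log2 fold change 1.06 ± 0.18, adjusted p = 0.000406, edgeR). The difference from preadipocytes did not pass (0.43 ± 0.17, adjusted p = 0.107, edgeR), except with no low-count filter (0.41), without mouse 2 (0.50) and in thinned sums (0.50). Klf4, at 1898, 1697 and 1840 CPM, was below progenitors (-0.87 ± 0.093, adjusted p = 1.11e-05, edgeR), and this call held without activated cells (-0.57, adjusted p = 0.000314, edgeR). Against preadipocytes Klf4 (-0.29 ± 0.093, adjusted p = 0.0453, edgeR) and Ebf1 (-0.32 ± 0.10, adjusted p = 0.0422, edgeR) passed narrowly, and both calls were lost when any 1 mouse was left out (-0.27 to -0.32 and -0.25 to -0.37). Cebpb was at 823, 1065 and 1310 CPM. It was below progenitors (-0.44 ± 0.11, adjusted p = 0.00820, edgeR), but the sign turned without activated cells (0.12, adjusted p = 0.413, edgeR), which made up 9.33% to 19.7% of regulatory cells. The call was also lost without mouse 2 (-0.32) and without the mouse block. Against preadipocytes Cebpb was higher but narrowly did not pass (0.34 ± 0.11, adjusted p = 0.0520, edgeR), and it passed under some alternatives.

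The commitment factors were lower in regulatory cells than in progenitors. Ebf1 was at 335, 410 and 396 CPM (-0.67 ± 0.10, adjusted p = 0.000194, edgeR), Ebf2 at 133, 129 and 117 CPM (-1.23 ± 0.19, adjusted p = 0.000201, edgeR) and Zfp423 at 8.49, 6.28 and 7.28 CPM (-0.82 ± 0.21, adjusted p = 0.00743, edgeR). The Zfp423 call was lost without mouse 2 (-0.78) or mouse 3 (-0.70) and in thinned sums (-0.69). Against preadipocytes the Ebf2 difference was -0.20 ± 0.19 and that of Zfp423 -0.44 ± 0.22, and neither passed (adjusted p = 0.524 and 0.188, edgeR).

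**Figure D4:**
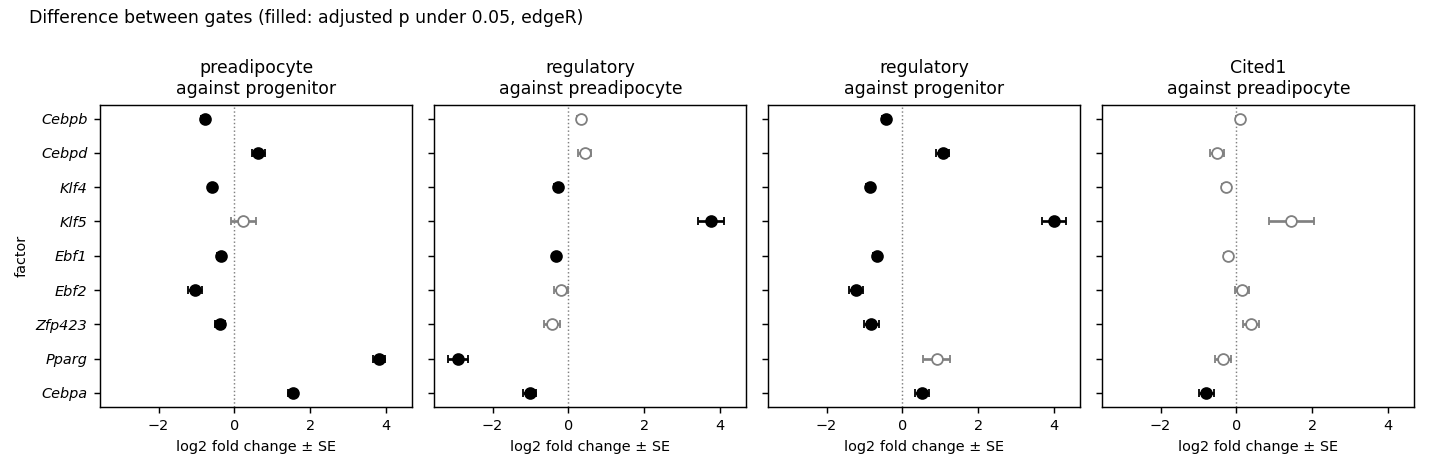
Log2 fold change ± SE (horizontal axis) of 9 factors in 4 comparisons of gates, from the edgeR fit with mouse as a block; filled points have an adjusted p under 0.05. Pparg was at 3.80 in preadipocytes against progenitors and at -2.90 in regulatory cells against preadipocytes, and Klf5 at 3.76 and 4.00 in regulatory cells against each.

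Cited1 cells, which the gate required to hold lipid genes, had Pparg levels that ranged widely between mice. Of these cells, 170, 23 and 34 in mice 1, 2 and 3 also met the preadipocyte gate as written, and 9, 24 and 16 the progenitor gate. Likeness to either gate is therefore partly set by how cells were chosen. The Pparg differences of this gate with gates lacking Fabp4 and Lpl are not given here. Pparg was at 60.0, 19.1 and 42.1 CPM, which overlapped the preadipocytes (log2 fold change -0.35 ± 0.20, adjusted p = 0.362, edgeR) and exceeded every progenitor sum (3.45 ± 0.25, adjusted p = 9.44e-07, edgeR). Against preadipocytes 1 of 9 factors passed, where 7.56% of all genes did, 3.39% higher and 4.16% lower. That factor was Cebpa, at 23.5, 29.7 and 12.04 CPM (-0.80 ± 0.19, adjusted p = 0.0256, edgeR), and the call was lost without mouse 1 (-0.88), mouse 2 (-0.87) or mouse 3 (-0.64) and under 7 other alternatives. Against progenitors 7 of 9 passed, 3 higher and 4 lower, where 28.9% of all genes did, 12.7% higher and 16.2% lower. The 3 higher factors were Pparg, Cebpa (0.74 ± 0.21, adjusted p = 0.0179, edgeR) and Klf5 (1.68 ± 0.59, adjusted p = 0.0485, edgeR). Klf5 rested on 1, 10 and 10 UMIs, and its call was lost without mouse 2 (1.06) or mouse 3 (1.22), with at most 1 Dpp4 UMI in the gate (1.71), with gates as written (1.58), without activated (1.52) or the deepest cells (1.42), in thinned sums (1.56) and without the mouse block (1.72). The Cebpa call was lost without mouse 1 (0.77) or mouse 2 (0.56), in thinned sums (0.36) and without the mouse block (0.74). Cebpb (-0.68 ± 0.11), Klf4 (-0.86 ± 0.094), Ebf1 (-0.59 ± 0.10) and Ebf2 (-0.89 ± 0.19) were lower than in progenitors. The Ebf2 call was lost without mouse 1 (-0.56) or mouse 3 (-0.80), and that of Cebpb without activated cells (-0.26, adjusted p = 0.0829, edgeR) and without the mouse block (-0.69). Ebf2 in this gate was at 129, 264 and 176 CPM, and the 2 mice with the higher levels were those with more Dpp4 in the gate. With at most 1 Dpp4 UMI allowed, the Ebf2 difference from preadipocytes turned from 0.14 ± 0.19 to -0.11, and neither passed. The Cited1 gate held 64 to 212 cells per mouse. Scaling by library size alone moved the median gene of this gate by 0.155 against preadipocytes and 0.189 against progenitors on the log2 scale, and the share of called genes that were higher from 44.9% to 74.2% and from 44.1% to 66.7%.

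Early and late factors were set against each other as summed CPM. The log2 ratio of early to late factors was 8.35, 8.66 and 8.64 in the progenitor gate of mice 1, 2 and 3 and 5.67, 5.67 and 5.98 in the preadipocyte gate, which did not overlap. It was 8.23, 7.40 and 7.77 in the regulatory gate and 5.56, 6.69 and 6.21 in the Cited1 gate. The late factors summed to 15.4 ± 1.16 CPM in progenitors and 84.9 ± 6.13 in preadipocytes (SD, n = 3), a far wider relative step than the 5755 ± 452 and 4640 ± 274 CPM of the early factors. The early sum is weighted to genes with many UMIs: Klf4 alone was at 3358 CPM in progenitors and 2303 in preadipocytes. It also adds Cebpd, which rose, to Cebpb and Klf4, which fell. In the regulatory gate the mean ratio was 7.80 with Klf5 and 7.79 without it, so the ratio does not show the Klf5 rise there. Without activated cells the ratio was 8.09 in progenitors and 5.70 in preadipocytes. With 3 mice an exact sign-flip test cannot go below p = 0.25, so none was run on the ratio. The balance of the C/EBP genes shifted between gates: the log2 ratio of Cebpb to Cebpd was 0.24, 0.67 and 1.09 in progenitors and -0.93, -0.72 and -0.57 in preadipocytes. Without activated cells it was -0.34, -0.44 and 0.37 in progenitors.

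Preadipocytes were then split by Cd44 RNA. The study divided Icam1+ cells into CD44-high and CD44-low populations by clustering and by sorting on CD44 protein. It reported similar Pparg expression in both and more PPAR signalling in the CD44-low one. From scores over gene sets it also reported a lower adipogenic and a higher stemness score in the CD44-high one. Its adipogenic set holds Pparg and Cebpa, and its stemness set holds Cebpb and Ebf2, each among other genes. The gate here also takes cells by Fabp4 alone, and depth per cell was not matched except in thinned cells. Preadipocytes with at least 2 Cd44 UMIs (261, 306 and 319 cells) were compared with those with 0 (1460, 747 and 1138 cells). Of 9 factors, 4 passed the test, 2 higher and 2 lower, where 18.3% of 11593 genes did, 12.1% higher and 6.2% lower. Pparg was at 41.1, 38.2 and 34.98 CPM in Cd44-rich cells and at 54.3, 50.3 and 50.6 CPM in the others. The cells with Cd44 had less in every mouse, by a small step (log2 fold change -0.34 ± 0.091, adjusted p = 0.0190, edgeR). Cebpa was at 28.7, 30.0 and 24.7 CPM against 35.2, 47.5 and 33.8 CPM (-0.40 ± 0.11, adjusted p = 0.0164, edgeR). Cebpb was higher with Cd44, at 734, 1159 and 1210 CPM against 650, 856 and 952 CPM (0.42 ± 0.064, adjusted p = 0.000336, edgeR). Klf5 was at 3.00, 4.44 and 5.35 CPM against 1.25, 1.09 and 2.79 CPM (1.49 ± 0.37, adjusted p = 0.0116, edgeR). The direction was shared by 3 of 3 mice for each of the 4. All 4 calls were lost without the mouse block, those of Pparg and Cebpa also with DESeq2. That of Pparg was lost without mouse 3 (-0.32) and those of Cebpa (-0.31) and Klf5 (1.12) without mouse 2. The Cebpa call was also lost without activated cells (-0.20) and without the 5% deepest cells (-0.33). In thinned cells Pparg (-0.95), Cebpa, whose sign turned (0.32), and Cebpb (0.24) did not pass. No thinned result is given for Klf5. Scaling by library size alone moved the median gene by -0.10 on the log2 scale and the share of called genes that were higher from 66.2% to 40.6%. Fabp4, a gate gene, was also lower with Cd44, at 1079, 918 and 1147 CPM against 1422, 1557 and 1316 CPM. Its part in the result was not tested. Cells with endothelial, mural or leukocyte markers were in the group with 0 Cd44 UMIs and not in the Cd44-rich group. Leaving them out took the former to 1431, 716 and 1128 cells and left the latter unchanged. Without them 2055 genes were called, against 2127 with them. Endothelial-marked cells held Pparg at 194, 245 and 0 CPM in mice 1, 2 and 3. In the whole preadipocyte gate without the marked cells, Pparg was at 52.4, 46.3 and 46.6 CPM. Levels of Pparg and Klf5 in the group with 0 Cd44 UMIs without them are not given here, so their part in these 2 differences is not shown.

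**Figure D5:**
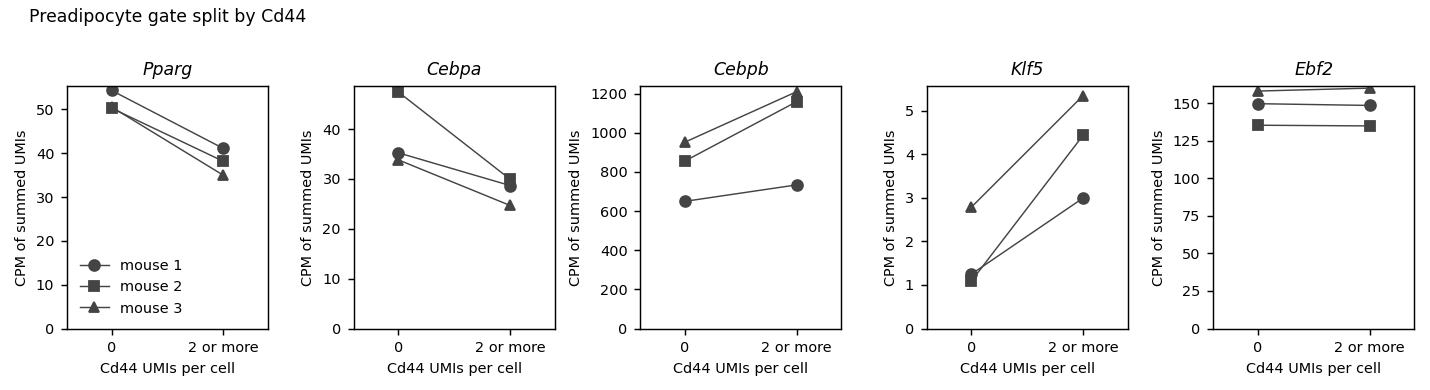
CPM of 5 factors (vertical axes, from 0) in preadipocytes with 0 or with 2 or more Cd44 UMIs, with 1 line per mouse. Pparg and Cebpa were lower and Cebpb and Klf5 higher with Cd44 in all 3 mice, and Ebf2 stayed between 135 and 160 CPM.

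Related genes of the pathway were counted in lists. Of 24 tested PPARγ target and adipocyte genes without the gate genes, 16 were higher and 3 lower in preadipocytes than in progenitors, with a median log2 fold change of 1.30. Over all genes 24.4% were higher and 25.5% lower, with a median of 0.015. The largest rises among those with at least 10 CPM were Cd36, a fatty acid transporter, at 5.92 ± 0.30, Plin4, a lipid droplet coat protein, at 5.03 ± 0.18 and G0s2, an inhibitor of lipolysis, at 4.13 ± 0.31. Plin4 was at 1.43, 0.55 and 1.38 CPM in progenitors and at 34.0, 32.9 and 47.0 CPM in preadipocytes. Endothelial cells also express Cd36, which was at 4817, 3422 and 319 CPM in endothelial-marked cells. Scd1, which desaturates fatty acids, fell by 1.50 and Dgat1, which makes triglyceride, by 1.31 on the log2 scale, and Cpt1a, which carries fatty acids into mitochondria, was at -0.43. In regulatory cells 0 of the 24 were higher and 11 lower than in preadipocytes, with a median of -1.35, where 10.6% of all genes were higher and 9.53% lower. In Cd44-rich preadipocytes 2 of 23 were higher and 10 lower, with a median of -0.50, where 12.1% of all genes were higher and 6.2% lower. The gates chose cells by Fabp4, itself a PPARγ target, so genes that vary with it are not independent of the gates. This list was not counted with gates lacking Fabp4 and Lpl.

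Other activators of adipogenesis went both ways: 11 of 28 were higher and 7 lower in preadipocytes than in progenitors, with a median of -0.054. The share of all genes called in this comparison, 49.9% (24.4% higher and 25.5% lower), is the background for this list and the next 3. Egr2, an early inducer of the cascade, rose by 2.16 ± 0.24, Stat5a, which carries growth hormone and prolactin signals, by 1.51 ± 0.16 and Nr1h3, the oxysterol receptor LXRα, by 1.29 ± 0.11. Fosl2 was lower by 2.08 ± 0.13, Tle3, a partner of PPARγ, by 1.31 ± 0.12 and Foxo1 by 1.01 ± 0.094. Foxo1 is counted in this list although it can also hold adipogenesis back. Inhibitors were as mixed, with 11 of 26 higher and 10 lower and a median of 0.18. Wnt10b, a secreted inhibitor of Pparg and Cebpa, was at 46.7, 45.4 and 50.3 CPM in progenitors and at 1.79, 1.00 and 2.11 CPM in preadipocytes (log2 fold change -4.92 ± 0.19, adjusted p = 9.69e-10, edgeR). Irf4 was lower by 2.37 ± 0.23 and Klf3 by 1.30 ± 0.10, while Sox9 (1.89 ± 0.26), Nr2f2 (1.78 ± 0.084) and Twist2 (1.03 ± 0.066) were higher. Among the families of the 10 factors, 4 of 21 relatives were higher and 10 lower, with a median of -0.30. Klf6 rose by 0.99 ± 0.091, Klf2 by 0.53 ± 0.12 and Klf9 by 0.50 ± 0.15, while Zfp462 was lower by 3.16 ± 0.18, Klf3, also in the list of inhibitors, by 1.30 and Zfp521, an opponent of Zfp423, by 1.13 ± 0.12. Of 24 immediate early and dissociation genes, 15 were higher and 5 lower in preadipocytes. Egr3 (2.53 ± 0.10), Egr2 and Jun (1.41 ± 0.094) rose, whereas Nr4a3 (-3.77 ± 0.20), Nr4a2 (-3.23 ± 0.26) and Nr4a1 (-2.26 ± 0.16) fell.

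The genes most like each factor were read from log2 CPM over the 12 sums of gate and mouse, among 5617 genes with at least 20 CPM that define no gate. These are descriptions, since the sums share mice and gates. Pparg was most like Slc9a3r2 (Pearson's r = 0.991), Cd36 (0.983) and Rhob (0.982). Ebf2 was most like Mfap5 (0.971), which encodes a microfibril protein, Galnt16 (0.971) and Pcdh20 (0.969). For Klf5, Ccdc107 (0.965) and Vit (0.924) were among the most alike. Klf4 was most like Isca1 (0.96), Agpat4 and Smurf1, Cebpd like Podn (0.96), Phlda1 and Gpnmb, and Cebpb like Hk2 (0.924), Spsb1 and Irf2bp2. Ebf1 was most like Marcks (0.956), Pdhb and Efemp1, Zfp423 like Kars (0.924), Zwint and Creb3l2, and Cebpa like Sar1b (0.920), Lamtor3 and Rtp4. Gata2, with at most 14 UMIs in a sum and 0 in every regulatory and Cited1 sum, reached r = 0.691 (Napa), followed by Degs1 and Cmtm3.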

How the data were processed

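Single-cell RNA-seq of 3 libraries, 1 per mouse, was analysed. The authors sorted CD31- CD45- cells, used the 10x 3' kit and Cell Ranger (4.0.0 per the file headers, 2.1.1 per the labels; build mm10 per the labels), and deposited raw UMI counts per gene and cell barcode. Barcodes entered the analysis above 500 genes and below a mitochondrial share of 5% (12984, 6414 and 15179 cells of 13698, 6872 and 16220). Cells in the Cited1 gate were taken out of the other gates and cells in 2 other gates were left out. No doublet caller was run; the 5% deepest cells were left out as an alternative. UMIs were summed per gate and mouse and tested in edgeR 4.0.16 (R 4.3.3; filterByExpr, TMM, quasi-likelihood test, mouse as a block) in 1 fit of the 4 gates and 1 of the Cd44 split, with Benjamini-Hochberg adjustment over all genes tested at 0.05. DESeq2 1.42.0 was an alternative. The block comes from the design, since the gates of a number are 1 animal: after gate means were taken off, pairs of sums of a mouse correlated with r between 0.0893 and 0.494, 0.184 and 0.715, and 0.0877 and 0.618. The gates were cut from the same cells that were tested. With the mouse as a block, p-values measure how far differences between gates vary among these 3 mice, not the spread of levels between animals. On simulated data of the preadipocyte against progenitor comparison with 12144 genes, 97 of 97 changes of 1 and 103 of 103 of 2 on the log2 scale were recovered, with 11 false calls. The simulation gave every gate the progenitor levels, all genes the same dispersion and all gates of a mouse the same mouse effect. Changes were planted only in genes above a minimum level in progenitors, which Pparg and Klf5 do not reach. It checks the code and does not measure power or error in the real data.

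Shares were computed after thinning cells to 3000 UMIs, with exact Clopper-Pearson 95% intervals and a limit of 3 counts for a count of 0. Positions are from GENCODE on GRCm38, which held 32158 of the 32285 identifiers. Promoters are from RefSeq (GRCm38.p6). Figures were drawn with matplotlib 3.10.9 in Python 3.11.15. The rule for named genes was all 10 factors, the 3 highest and 3 lowest called genes of each list with at least 10 CPM, and the 3 genes most like each factor, of which 1 is not reported here. Ddit3, of which 2 identifiers share the symbol, was left out. The members, gates and lists were chosen with earlier results of these data known.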

Additional observations from a re-analysis of the deposited data

How the results depend on the processing

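Values of the scarce factors rest on few or no UMIs: 0 UMIs of Gata2 were counted in the regulatory and Cited1 gates, 1 to 10 UMIs of Klf5 were counted per mouse in the Cited1 gate and 21, 100 and 46 UMIs of Pparg and Cebpa together in the regulatory gate. The main fit used the mouse as a replicate block. Without it, the number of genes called went from 6487 to 3363 in preadipocytes against progenitors, from 2613 to 1173 in regulatory cells against preadipocytes, from 4914 to 2690 in regulatory cells against progenitors, from 982 to 220 in Cited1 cells against preadipocytes, from 3759 to 2048 in Cited1 cells against progenitors and from 2127 to 15 in the Cd44 split. With gates and sums thinned to 3000 UMIs, 1724, 3266, 423, 1769 and 227 genes were called in the last 5 of these, which use fewer counts. The Cited1 against preadipocyte count was 1525 with no low-count filter and 1522 with gates lacking Fabp4 and Lpl, and the Cd44 count was 722 with DESeq2. Leaving out 1 mouse gave 4650 to 5688, 1203 to 1915, 3010 to 3968, 163 to 928, 1765 to 3767 and 1065 to 1888 genes, in the same order. The log2 ratio of early to late factors was 8.09 in progenitors without activated cells, 6.01 in preadipocytes with gates lacking Fabp4 and Lpl and 5.00 in the Cited1 gate when thinned (5.39, 3.81 and 5.79 in mice 1, 2 and 3, where mouse 2 rests on 2 cells and 2 late UMIs). Sums of under 10 cells were left out of the thinned fit, which so lacks the Cited1 gate of mouse 2. Without 1 mouse it was 8.49 to 8.65, 5.67 to 5.83, 7.59 to 8.00 and 5.88 to 6.45 in the progenitor, preadipocyte, regulatory and Cited1 gates.

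Of 493 repeats of the 33 member differences that passed the test, 414 passed again in the same direction, 77 no longer passed and 2 changed sign. Those 2 were Cebpb in regulatory cells against progenitors without activated cells (0.12) and Cebpa in the Cd44 split when thinned (0.32). The cause was not tested. Among the 21 differences that had not passed, 26 of 315 repeats changed sign and 26 passed, of Cebpb, Cebpd, Klf4, Klf5, Ebf1 and Pparg. Cited1 cells against preadipocytes changed sign for Cebpb without activated cells (-0.084), with gates lacking Fabp4 and Lpl (-0.11) and with at most 1 Dpp4 UMI (-0.15), for Ebf2 without mouse 2 (-0.27 to 0.44 without 1 mouse), thinned (-0.62), with gates lacking Fabp4 and Lpl (-0.090) and with at most 1 Dpp4 UMI (-0.11), and when thinned for Zfp423 (-0.18) and Pparg (0.24). Cited1 cells against progenitors did so for Cebpd without mouse 2 (-0.096 to 0.38 without 1 mouse), thinned (-0.17), without activated cells (-0.0093) and with gates lacking Fabp4 and Lpl (-0.022), and for Zfp423, whose difference was near 0, with no low-count filter (-0.054), no replicate block (-0.028), without mouse 1 (-0.11 to 0.062 without 1 mouse), a mitochondrial limit of 10% (-0.00033), thinned (-0.44), gates as written (-0.012) and gates lacking Fabp4 and Lpl (-0.16). The Cd44 split did so for Cebpd (-0.14) and Ebf2 (-0.30) thinned, without mouse 2 for Klf4 (-0.028 to 0.20 without 1 mouse) and Zfp423 (-0.14 to 0.39) and for Ebf2 scaled by library size (-4.16e-06). Pparg in regulatory cells against progenitors did so when thinned (-0.27). The alternatives without endothelial, mural and leukocyte cells and with at most 1 Dpp4 UMI were chosen after seeing the data.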
